A study of Mus musculus with 4 samples.

Results

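The genes described here are 10 smooth muscle and pericyte genes, Acta2, Myh11, Tagln, Cnn1, Des, Rgs5, Pdgfrb, Cspg4, Notch3 and Mcam, followed in whole mammary fat pad (MFP) tissue of aged and young mice. They were chosen by symbol from the 55487 genes in the count table, and each of the 10 symbols stands on a single row. Total RNA was sequenced from the MFP of C57BL/6J mice (written c57b/6j in the labels) at 14 months (aged, 2 samples) and 8 weeks (young, 2 samples), with replicates numbered 1 and 2 for either age. No sample carried a tumor, a transgene or a treatment according to the labels, the sex is not labelled, and the methods of the study name female C57BL/6NCrl mice for its injections. The tissue was chopped and lysed whole, and the 10 genes thus count RNA from vessels, ducts and any attached muscle together. In such bulk samples fewer cells of a type and less RNA per cell cannot be told apart. Replicates are labelled as biological, without saying how many animals each holds.

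Smooth muscle cells and pericytes, together called mural cells, wrap the endothelium of blood vessels. Smooth muscle of arteries and veins contracts through smooth muscle actin and myosin, whose genes are switched on by serum response factor (SRF) with myocardin at DNA elements called CArG boxes. Pericytes sit on capillaries, are recruited by the ligand PDGF-B through the receptor encoded by Pdgfrb, and receive Notch signals through Notch3. Several of the genes are also used outside the vessel wall. Acta2, Myh11, Tagln and Cnn1 are expressed by the myoepithelial cells of mammary ducts, Des by skeletal muscle, Pdgfrb by fibroblasts and Mcam by endothelium.

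Of the 10 genes, Des and Rgs5 were higher in both aged than in both young samples, and the other 8 overlapped between the ages. Des, the intermediate filament of muscle cells, was at 507 and 752 CPM in aged replicates 1 and 2 and at 122 and 132 CPM in young replicates 1 and 2, where CPM is the count per 1000000 counts of the TMM-scaled library total. Rgs5, a regulator of G protein signalling that marks pericytes, was at 213 and 169 CPM in aged and 138 and 121 CPM in young MFP. Neither gene was called at an adjusted p under 0.05 by edgeR's quasi-likelihood test, in which 0% of the 22485 genes tested were called (0 genes), while 10.5% had an unadjusted p under 0.05 (7.24% higher and 3.31% lower in aged MFP). DESeq2 called 3.86% of the genes it adjusted (3.17% higher and 0.692% lower in aged MFP), and Des was the only member among them. Over all genes tested, 46.1% did not overlap between the ages in either direction and 23.3% were higher in both aged samples, and 2 of 10 members is no more than that share.

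**Figure D1:**
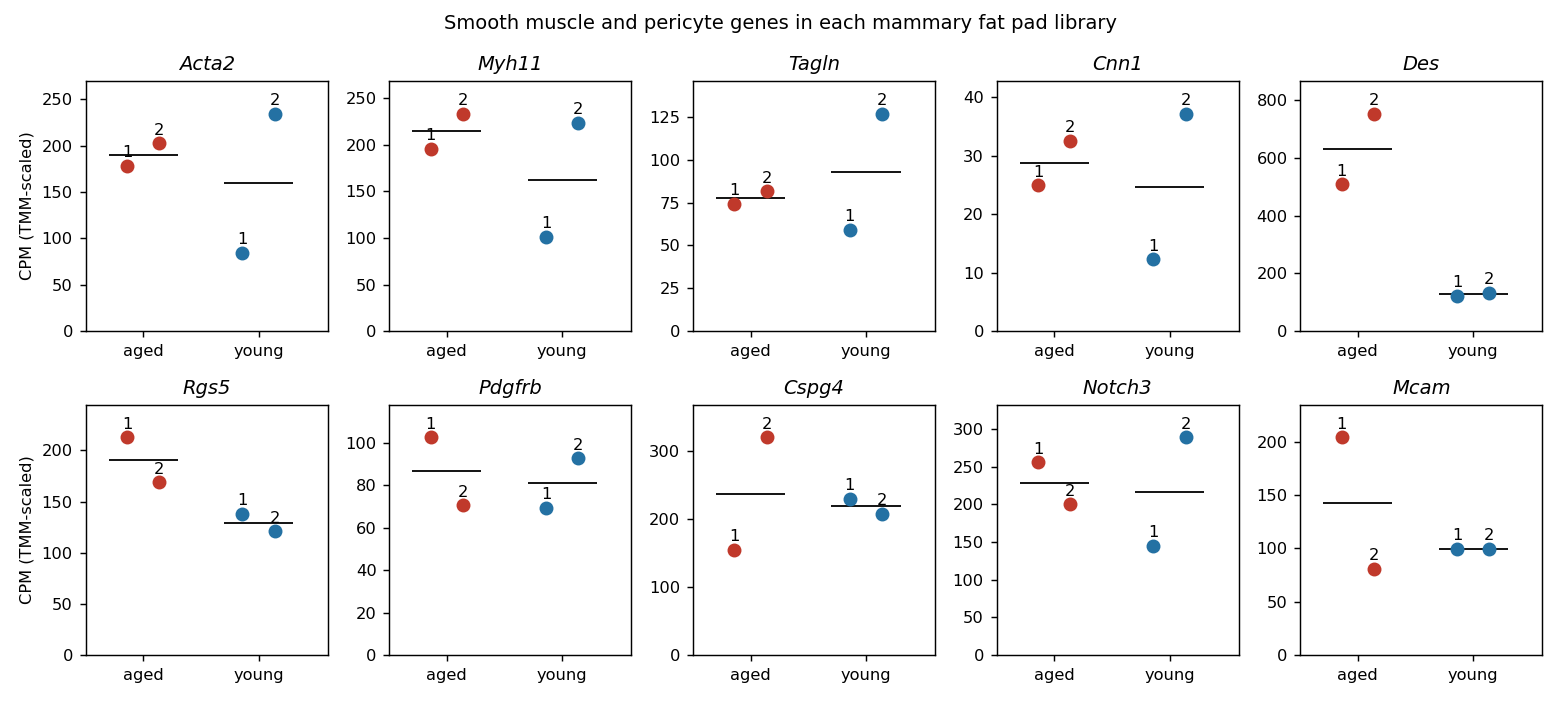
Level of each gene in CPM (TMM-scaled, linear axis from 0) in the 2 aged (red) and 2 young (blue) libraries, with replicate numbers beside the points and a line at the mean of each age. Des and Rgs5 have both aged points above both young points, and in Acta2, Myh11, Tagln, Cnn1 and Notch3 the young replicates are farther apart than the aged ones.

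The library totals were between 68803304 and 98402403 counts. No member had fewer than 1006 counts in any sample, so counting error was small beside the level of each member. The libraries themselves were not alike. The 4 immune marker genes (Ptprc, Adgre1, Cd3e and Ms4a1) summed to 1003 CPM in young replicate 1 and to 53.6, 142 and 48.3 CPM in aged replicate 1, aged replicate 2 and young replicate 2. Young replicate 1 was also the lowest library for 7 of the 10 members. The margin was small for Pdgfrb (69.2 against 70.6 CPM in aged replicate 2) and Des (122 against 132 CPM in young replicate 2). The share of all genes that were lowest there was not computed. The smallest two-sided p that an exact permutation of 2 aged and 2 young samples can reach is 0.333, so the tests below rest on the spread that edgeR estimates across genes.

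Acta2, Myh11, Tagln and Cnn1, the contractile genes, were all lowest in young replicate 1. Acta2 (chromosome 19, 34241090 to 34255590, minus strand, GENCODE M21 on GRCm38) encodes the smooth muscle actin. It was at 178 and 202 CPM in aged and at 84.1 and 234 CPM in young MFP, so that the aged samples lay between the young ones. The edgeR estimate for aged over young was 0.26 on the log2 scale (SE 0.52, adjusted p = 0.848). Of the 50-base words of its longest transcript, 0.352% also occur in transcripts of other genes. The genes sharing the most of these words were the predicted genes Gm8399, Gm6375 and Gm16385, and any further genes were not listed.

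The start of Acta2 is shown because its CArG-like elements are the textbook binding sites of SRF at this promoter. Promoter windows of RefSeq (GRCm38.p6, 250 bases before to 50 after the gene's start) were found for 7 of the 10 members. Myh11, Tagln and Pdgfrb had no window and were not searched. The windows were searched on both strands for the CArG box, for TGGGAA, the site of the Notch effector RBPJ, and for CAGCTG, an E-box. A CArG box with at most 1 G or C in its core was found in 1 of the 7 windows, that of Acta2, which holds 2 of them, and in 9.98% of all 32851 windows. No member window held a CArG box with a core of only A and T, which 1.63% of all windows hold. In the lists described below, the box with at most 1 G or C was in 5 of 10 windows of skeletal muscle markers. It was in 1 of 11 windows of the other contractile genes and in 1 of 10 of the other pericyte genes. The Acta2 elements begin 84 and 34 bases before the start on the minus strand. The TGGGAA of the second begins 27 bases before the start and shares its first bases with the CArG-like element. TGGGAA was in 1 of the 7 member windows and in 25.6% of all windows. In capitals are the CArG-like elements and TGGGAA, at chr19:34255438-34255467 and chr19:34255388-34255417, a stretch that GENCODE M21 also places in the first exon of a longer Acta2 transcript.
Acta2 first element: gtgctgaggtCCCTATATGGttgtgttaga
Acta2 second element: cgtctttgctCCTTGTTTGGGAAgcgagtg

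Myh11 (chromosome 16, 14194535 to 14291372, minus strand), the smooth muscle myosin heavy chain, was at 195 and 233 CPM in aged and 101 and 223 CPM in young MFP. Young replicate 1 was again the lowest library, and the other 3 lay close together. Its log2 fold change by edgeR was 0.40 (SE 0.42, adjusted p = 0.699). Cnn1 (chromosome 9, 22099216 to 22109630, plus strand) encodes calponin, which binds actin and tunes contraction. It was at 24.9 and 32.5 CPM in aged and at 12.3 and 37.2 CPM in young MFP, again with the aged samples between the young ones (edgeR log2 fold change 0.22, SE 0.58, adjusted p = 0.886).

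Tagln (chromosome 9, 45929619 to 45936058, minus strand), which encodes the actin-binding protein transgelin or SM22, was the only member with a negative log2 fold change, -0.26 by edgeR (SE 0.40, adjusted p = 0.799). It was at 74.3 and 81.6 CPM in aged and at 59.1 and 127 CPM in young MFP, and the ages overlapped. On the other strand its exons overlap Gm48529 by 1241 bases and Pcsk7 by 108 bases, and whether the counting used strand is not given in the sources used here. Over all 4 libraries Gm48529 had 1369 counts and Pcsk7 16150 counts, against at least 4848 counts of Tagln in each library.

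The direction of these genes turned on which young replicate was used. Between the young replicates the higher value was 2.78 times the lower for Acta2, 2.20 times for Myh11, 2.15 times for Tagln and 3.03 times for Cnn1, whereas between the aged replicates the largest of these ratios was 1.31, that of Cnn1. Without young replicate 1 the log2 fold changes were -0.30 for Acta2, -0.059 for Myh11, -0.37 for Cnn1 and -0.70 for Tagln. Without young replicate 2 they were 1.19, 1.09, 1.24 and 0.41. Whether smooth muscle contractile genes were higher or lower in aged MFP was therefore not settled by these samples.

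**Figure D2:**
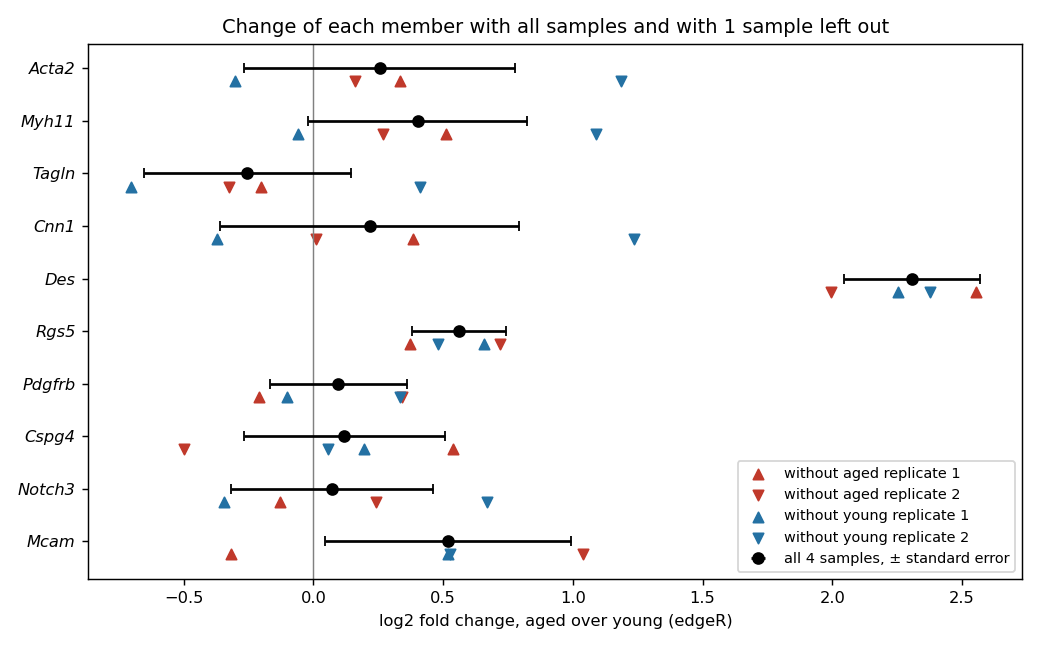
Log2 fold change of aged over young MFP for each gene, from edgeR with all 4 samples (black, bars are ± 1 standard error) and with a single sample left out (triangles, coloured by the age of the sample left out). Des stays between 2.00 and 2.55 and Rgs5 between 0.37 and 0.72, while for the other genes the triangles lie on both sides of 0.

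Of the markers of the mammary ducts, the luminal list was lowest in young replicate 1 and highest in young replicate 2. The sum of the contractile genes had the same lowest and highest libraries. The sum of the myoepithelial list was also lowest in young replicate 1 but was not highest in young replicate 2. The 5 luminal markers (Krt8, Krt18, Krt19, Epcam and Prlr) summed to 2484 and 2179 CPM in aged and to 1347 and 3334 CPM in young MFP, and young replicate 2 was 2.48 times young replicate 1. The sum of Acta2, Myh11, Tagln and Cnn1 was 472 and 550 CPM in aged and 257 and 621 CPM in young MFP, a ratio of 2.42 between the young replicates. The 5 myoepithelial markers, most of whose sum is the oxytocin receptor Oxtr, were at 514 and 703 CPM in aged and 233 and 379 CPM in young MFP, so that both young replicates lay below both aged ones. Of the keratins among them, Krt5 had a log2 fold change of 1.36 and Krt14 of 1.22 (adjusted p = 0.536 and 0.548, edgeR). Both are also keratins of epidermis. The remaining keratin of the list, Krt17, overlapped between the ages, at -0.080 on the log2 scale (adjusted p = 0.959, edgeR). Krt17 was lowest in young replicate 1 and highest in young replicate 2 (17.6 and 20.0 CPM in aged, 10.1 and 29.7 CPM in young MFP). Young replicate 2 was 4.22 times young replicate 1 for Krt5, 4.03 times for Krt14 and 2.95 times for Krt17. For Trp63, the remaining marker of the list, it was 2.83 times, and for Oxtr 1.24 times. The sum of the 9 endothelial markers differed by at most 1.46 times between any of the libraries, between 712 and 1041 CPM, but its genes did not move alike. Vwf, von Willebrand factor, was lowest in young replicate 1 (203 and 163 CPM in aged, 50.8 and 136 CPM in young MFP), and the adhesion molecule Pecam1 was highest there (165 and 115 CPM in aged, 181 and 113 CPM in young MFP). The part of duct tissue in the levels of the contractile genes was not tested.

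**Figure D3:**
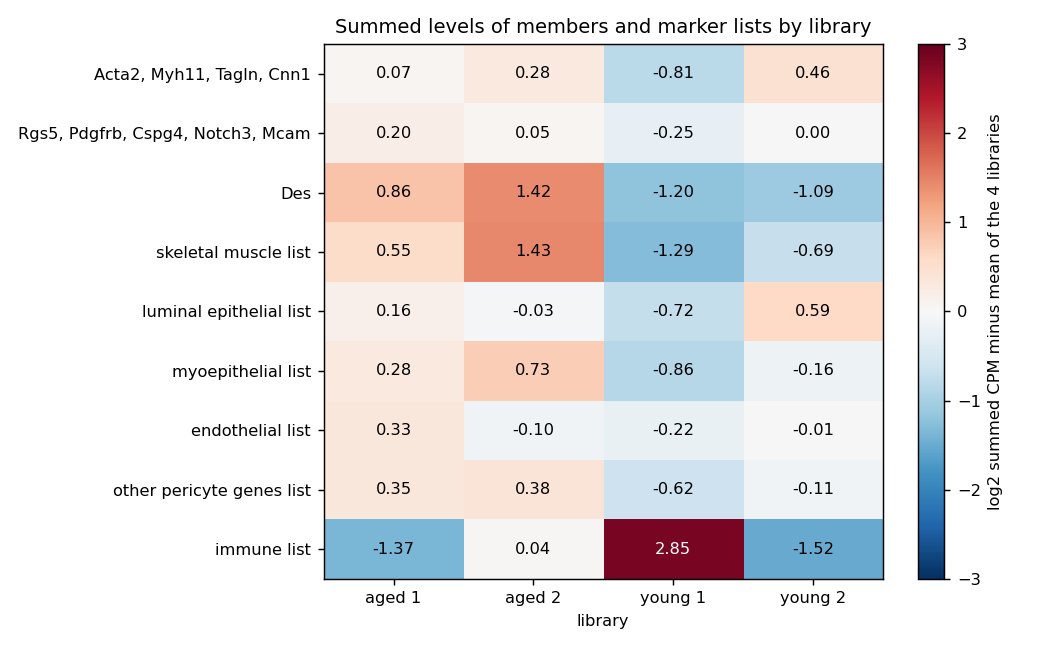
Summed CPM of the contractile members, of the pericyte members, of Des and of marker lists in each library, as log2 difference from the mean of the 4 libraries (red above, blue below). The contractile members are lowest in young 1 (-0.81) and highest in young 2 (0.46), the luminal list likewise (-0.72 and 0.59), Des follows the skeletal muscle list, and the immune list stands at 2.85 in young 1.

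Within a library, ratios between genes do not depend on how the libraries are scaled. Acta2 was 0.911 and 0.868 times Myh11 in aged and 0.830 and 1.05 times in young MFP. Tagln was 0.380 and 0.350 times Myh11 in aged and 0.583 and 0.569 times in young MFP. The ages thus did not overlap in the share of Tagln relative to Myh11, although the young replicates differed by 2.15 times in Tagln itself. Relative to Acta2, Tagln was at 0.418 and 0.403 in aged and 0.703 and 0.541 in young MFP. Of the 45 pairs of members, 14 had ratios that did not overlap between the ages. These were all 9 pairs with Des and 5 of the 36 pairs without Des. The 46.1% of all genes tested that did not overlap is a share of single levels. The like share over ratios of other genes was not computed. Tagln was in 4 of those 5, with Acta2, Myh11, Cnn1 and Notch3, and the last was Rgs5 with Pdgfrb. The ratios were compared after the values were seen and were not tested.

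**Figure D4:**
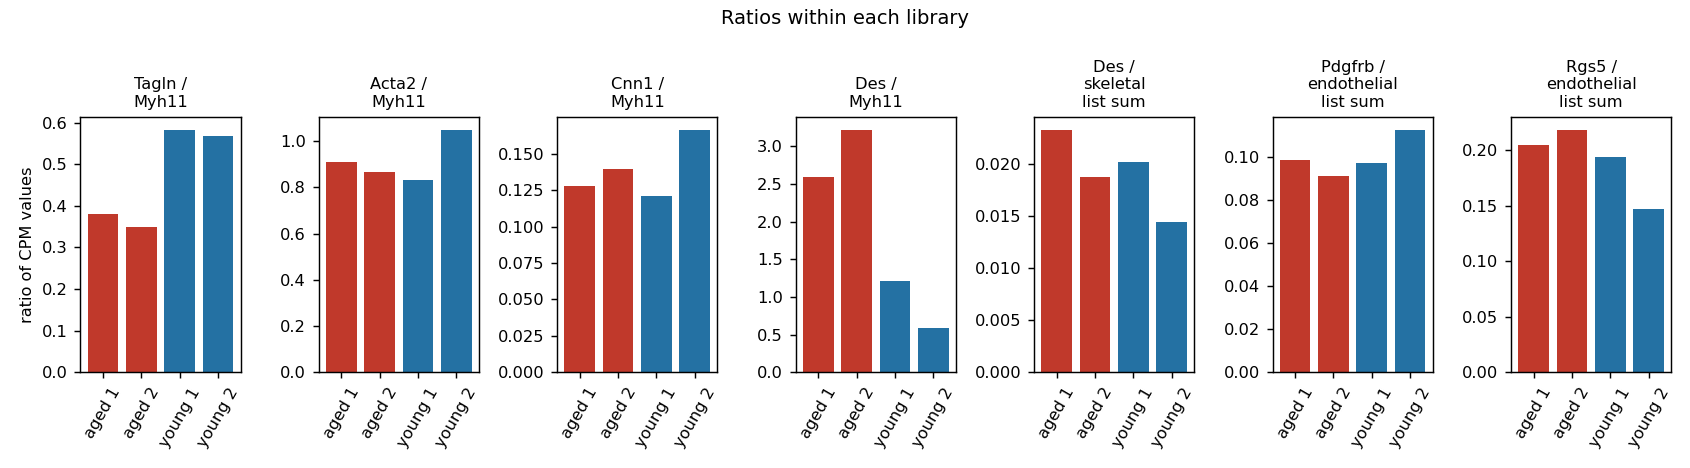
Ratios of CPM within each library (linear axes from 0), for Tagln, Acta2, Cnn1 and Des over Myh11, for Des over the summed skeletal muscle list, and for Pdgfrb and Rgs5 over the summed endothelial list. Tagln over Myh11 is at most 0.380 in aged and at least 0.569 in young libraries, and Des over the skeletal list overlaps between the ages.

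Des (chromosome 1, 75360329 to 75368579, plus strand) differed from the rest by its size. It averaged 630 CPM at the older age (SD 173, n = 2) and 127 CPM at the younger (SD 6.89, n = 2), a fold of 4.95 and 2.31 on the log2 scale (SE 0.26). Its unadjusted p was 0.000771 and its adjusted p 0.36 from edgeR, while DESeq2 gave it an adjusted p of 6.06e-11. Over all alternatives run on the 4 samples its adjusted p was between 6.06e-11 and 0.573. The fold was the same in direction with every sample left out in turn, with log2 values between 2.00 and 2.55. Gm15179, which overlaps 220 exon bases of Des on the other strand, had 911 counts in all libraries, against at least 9744 of Des in each.

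Des moved with skeletal muscle genes. The 12 skeletal muscle markers, among them Acta1, Ckm and the fast myosin Myh4, summed to 21788 and 40081 CPM in aged and to 6055 and 9171 CPM in young MFP. All 12 were higher in both aged samples, with a median log2 fold change of 2.05. The largest values were those of Myh2 (8.04, adjusted p = 0.466 from edgeR) and Mb, myoglobin (3.86, adjusted p = 0.462), which stood at 578 and 97.5 CPM in aged replicate 1 but at 2.16 and 10.01 CPM in aged replicate 2. Divided by the skeletal muscle sum, Des was 0.0233 and 0.0188 in aged and 0.0202 and 0.0144 in young MFP, and the ages overlapped. Divided by Myh11, Des was 2.60 and 3.22 in aged and 1.21 and 0.592 in young MFP. Des made up 26.6% and 35.1% of the summed CPM of the 10 members in aged and 11.5% and 8.45% in young MFP. How much of the Des RNA came from smooth muscle was not tested.

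The stretch before the start of Des is shown with the E-box CAGCTG, bound in muscle by factors of the MyoD family, in capitals. It begins 36 bases before the start. This E-box was in 3 of the 7 member windows and in 16.3% of all windows, in 7 of the 10 windows found for the skeletal muscle list, in 5 of 10 for the other pericyte genes and in 2 of 11 for the other contractile genes. The window (RefSeq, GRCm38.p6, plus strand) is chr1:75360042-75360291.
Des: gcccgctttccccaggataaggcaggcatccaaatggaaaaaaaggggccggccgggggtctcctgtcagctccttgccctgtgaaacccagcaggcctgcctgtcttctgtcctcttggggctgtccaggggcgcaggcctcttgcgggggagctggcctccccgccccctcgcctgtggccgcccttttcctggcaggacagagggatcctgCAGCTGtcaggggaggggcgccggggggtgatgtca

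Among the pericyte genes, Rgs5 (chromosome 1, 169655501 to 169695813, plus strand) averaged 191 CPM at the older age (SD 31.1, n = 2) and 129 CPM at the younger (SD 12.02, n = 2). The edgeR log2 fold change was 0.56 (SE 0.18, unadjusted p = 0.0353, adjusted p = 0.458), and DESeq2 gave an adjusted p of 0.277. The direction held with each sample left out, with log2 values from 0.37 to 0.72, and the gap between the lowest aged and the highest young sample was 169 against 138 CPM. Relative to the endothelial sum, Rgs5 was at 0.205 and 0.219 in aged and at 0.194 and 0.147 in young MFP, so that the young replicate 1 value came close to the aged ones.

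Pdgfrb (chromosome 18, 61045150 to 61085061, plus strand), the receptor for PDGF-B, was at 103 and 70.6 CPM in aged and at 69.2 and 92.8 CPM in young MFP. The ages overlapped, and the edgeR log2 fold change of 0.10 (SE 0.26, adjusted p = 0.89) turned to -0.075 when only total counts were used for scaling, and to -0.21 and -0.10 without aged or young replicate 1. Divided by the endothelial sum it was at 0.0986 and 0.0914 in aged and at 0.0972 and 0.113 in young MFP. Relative to this sum the 4 libraries thus lay close together. The fibroblast markers, another source of Pdgfrb, went both ways, with Col1a1 at -1.60 and Dcn at 1.33 on the log2 scale (adjusted p = 0.36 for both from edgeR).

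Notch3 (chromosome 17, 32120820 to 32166852, minus strand), the Notch receptor of mural cells, was at 256 and 200 CPM in aged and at 145 and 289 CPM in young MFP. By edgeR its log2 fold change of 0.072 (SE 0.39, adjusted p = 0.946) became -0.11 with total counts only, -0.34 without young replicate 1 and -0.13 without aged replicate 1. Like the sum of the contractile genes, Notch3 was lowest in young replicate 1 and highest in young replicate 2.

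Cspg4 and Mcam differed most between the aged replicates. Cspg4 (chromosome 9, 56865033 to 56899870, plus strand), which encodes the proteoglycan NG2 on the surface of pericytes and glial precursors, was at 154 and 320 CPM in the aged replicates, below and above the young ones at 229 and 207 CPM. By edgeR its log2 fold change was 0.12 (SE 0.39, adjusted p = 0.907), -0.50 without aged replicate 2 and -0.079 with total counts only. Mcam (chromosome 9, 44134469 to 44142727, plus strand), a cell adhesion molecule also known as CD146, went the other way, with 204 CPM in the first aged replicate and 80.4 CPM in the second. The young replicates stood together at 99.4 and 99.2 CPM. The edgeR log2 fold change was 0.52 (SE 0.47, adjusted p = 0.66) and turned to -0.32 without aged replicate 1. In aged replicate 1 the endothelial sum was 1041 CPM, against 773 CPM in aged replicate 2, a smaller ratio than the 2.54 of Mcam. Their part in the level of Mcam was not tested.

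The 10 genes could be ranked by level only per length. In CPM per kilobase of annotated exon, Des was the highest member in both aged libraries, at 135 and 200, followed by Acta2 at 81.0 and 92.1. In young MFP Acta2 was the highest, at 38.3 and 107, and Des was at 32.6 and 35.2. Cnn1 was the lowest member in every library, between 4.49 and 13.6. The order in between changed among libraries, and Mcam ranged from 24.0 in aged replicate 2 to 60.9 in aged replicate 1, so that neighbours in this order did not differ beyond their spread. In young replicate 1 Acta2, Des, Rgs5, Tagln and Mcam all lay between 29.7 and 38.3 CPM per kilobase.

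Over the 10 members the median log2 fold change was 0.24, 9 positive and 1 negative, against -0.036 over all genes tested, of which 47% were positive. Without young replicate 1 the median of the members was -0.080. Scaling by total counts only moved the median of all genes to -0.22 and that of the members to 0.046. At an unadjusted p under 0.05 there were 2 members, Des and Rgs5, both higher in aged MFP, where 7.24% of all genes tested were higher at that threshold.

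Related genes were followed in lists. Of 12 other contractile genes, 6 were higher and 1 lower in both aged samples, against 23.3% and 22.8% of all genes tested, with a median log2 fold change of 0.56 that became 0.18 without young replicate 1. The largest were the tropomyosins Tpm2 (2.00, adjusted p = 0.36 from edgeR) and Tpm1 (1.70, adjusted p = 0.433), which skeletal muscle also expresses. Tpm2 was at 898 and 1093 CPM in aged and at 223 and 275 CPM in young MFP. Lmod1, the leiomodin of smooth muscle, was higher in both aged samples, at 23.4 and 31.3 CPM against 5.38 and 16.6 CPM (1.32, adjusted p = 0.51 from edgeR). Myl9, the smooth muscle myosin light chain, was at 0.57 (30.1 and 37.1 CPM in aged, 14.0 and 31.1 CPM in young MFP) and Smtn, smoothelin, at 0.33, and both overlapped between the ages. Actg2, the actin of visceral smooth muscle, was lower in both aged samples, at 3.27 and 4.66 CPM against 4.84 and 13.9 CPM, at -1.24 on the log2 scale (adjusted p = 0.523 from edgeR). At an unadjusted p under 0.05 in edgeR 4 were higher and 0 lower (7.24% and 3.31% of all genes tested), none was called after adjustment, and DESeq2 called 4, all higher in aged MFP, as were 3.17% of the genes it adjusted. These were Tpm1, Tpm2, Synpo2 and Ppp1r12b. The part of skeletal muscle in the levels of these genes was not tested.

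Of the 7 transcriptional regulators, none was called by edgeR or DESeq2 or had an unadjusted p under 0.05 in edgeR (0 genes), and their median log2 fold change was 0.31. Klf4, which represses contractile genes, was at 0.53 (adjusted p = 0.532 from edgeR). Myocd, myocardin itself, was at 0.758 and 0.887 CPM in aged and at 0.0854 and 1.12 CPM in young MFP, with 0.45 on the log2 scale (SE 1.17, adjusted p = 0.884). Srf was at 48.2 and 53.0 CPM in aged and at 43.0 and 38.4 CPM in young MFP, or 0.31 on the log2 scale (adjusted p = 0.518 from edgeR). The list went both ways, with 4 positive and 3 negative log2 fold changes. Negative were Mrtfa (-0.42), Tbx18 (-0.30) and Foxs1 (-0.30), with adjusted p = 0.588, 0.749 and 0.704 from edgeR. In both aged samples 3 regulators were higher and 1, Foxs1, was lower, against 23.3% and 22.8% of all genes tested.

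Of the 13 other pericyte genes, 10 were higher and 0 lower in both aged samples, where 23.3% and 22.8% of all genes tested were. Their median log2 fold change was 0.51, between 0.33 and 0.52 over the alternatives on all samples and between 0.47 and 0.65 with a sample left out. Abcc9 (1.11, SE 0.17, adjusted p = 0.36 from edgeR and 0.000633 from DESeq2), a subunit of the potassium channel of pericytes and muscle, was at 109 and 140 CPM in aged and at 57.7 and 57.7 CPM in young MFP. Its channel partner Kcnj8 was at 10.7 and 11.3 CPM in aged and at 8.47 and 6.95 CPM in young MFP (0.51, adjusted p = 0.501 from edgeR). Ndufa4l2, a mitochondrial protein enriched in pericytes, was at 5.21 and 4.71 CPM in aged and at 2.79 and 2.75 CPM in young MFP (0.84, adjusted p = 0.432). The subunits of the nitric oxide receptor, Gucy1a1 (0.71) and Gucy1b1 (0.59), did not overlap between the ages either. Ednra, an endothelin receptor of smooth muscle and pericytes, overlapped, at 35.5 and 25.8 CPM in aged and 24.5 and 41.3 CPM in young MFP. By edgeR 4 of the 13 had an unadjusted p under 0.05, all higher in aged MFP, none was called after adjustment, and DESeq2 called Abcc9 alone. In the same libraries all 6 adipocyte markers were also higher in both aged samples, with a median of 0.70 (Lep 1.20, Adipoq 1.00, adjusted p = 0.404 and 0.426 from edgeR). Without aged replicate 1 this median was 0.21. The margin between aged replicate 2 and young replicate 2 was small for Cidec (541 against 540 CPM) and Plin1 (1019 against 1007 CPM). The part of other cell types in the pericyte list was not tested.

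**Figure D5:**
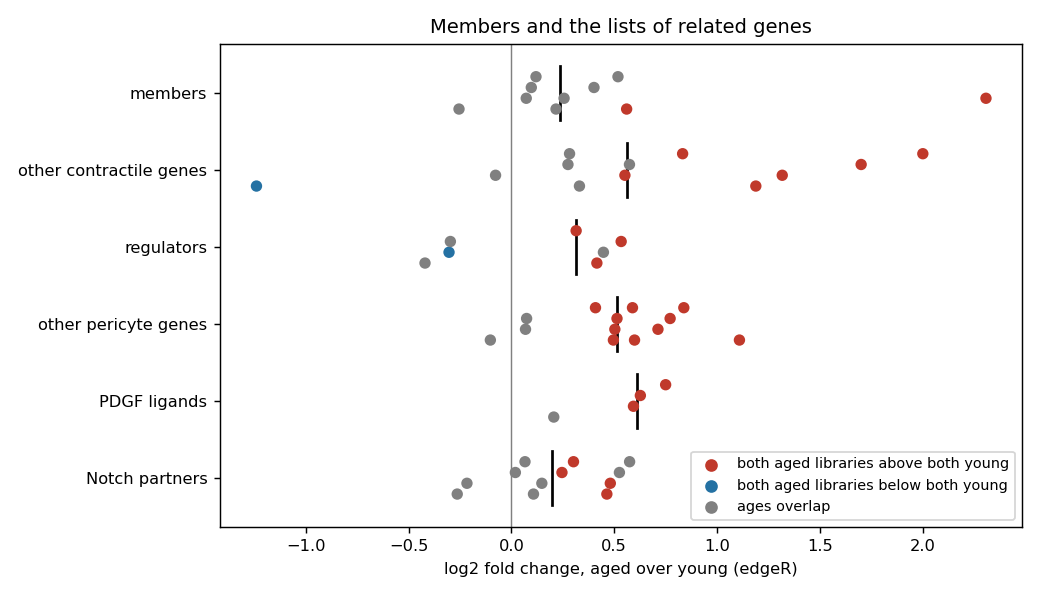
Log2 fold change of aged over young MFP for each member and for each gene of the related lists (points), with the median of each list as a black line. Red points are genes with both aged libraries above both young, blue points the reverse, grey points overlap. In the pericyte list 10 of 13 points are red.

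The ligands of the pericyte receptors were measured too. Of the 4 PDGF ligands, Pdgfb and Pdgfd encode ligands of the Pdgfrb receptor. Pdgfb overlapped between the ages at 66.9 and 53.4 CPM in aged and 45.7 and 58.6 CPM in young MFP (log2 fold change 0.21, adjusted p = 0.689 from edgeR). The other 3, Pdgfa, Pdgfc and Pdgfd, were higher in both aged samples, against 23.3% of all genes tested, with Pdgfd at 14.6 and 11.5 CPM in aged and 5.76 and 9.76 CPM in young MFP (0.75, adjusted p = 0.512 from edgeR) and Pdgfc at 0.63 (adjusted p = 0.561). Of the 12 Notch ligands, other receptors and targets, 4 were higher and 0 lower in both aged samples, near the 23.3% of all genes tested that were higher, and the median was 0.20. Jag1, the ligand of Notch3 on endothelium and neighbouring muscle, was at 117 and 116 CPM in aged and 76.7 and 113 CPM in young MFP. The target Heyl was at 11.3 and 8.83 CPM in aged and at 7.43 and 7.02 CPM in young MFP (0.48, adjusted p = 0.523). In this list 10 log2 fold changes were positive and 2 negative. The negative ones were those of the target Hey1 (-0.26, adjusted p = 0.820 from edgeR) and of Notch4 (-0.22, adjusted p = 0.739). The largest values were those of Hes1 (0.57, adjusted p = 0.588) and Dll1 (0.53, adjusted p = 0.657), and both overlapped between the ages. No gene of the PDGF and Notch lists was called by edgeR or DESeq2 or had an unadjusted p under 0.05 in edgeR (0 genes).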

How the data were processed

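RNA of whole MFP tissue was measured in 4 samples. Libraries were made from total RNA depleted of ribosomal RNA, with a directional kit. The deposited values are raw read counts by gene from the authors, with a column for each sample, neither normalized nor pooled. The submitters' processing notes name featureCounts, R 3.6.1, GRCm38 and hg38. The aligner, the annotation and the strand setting are not given in the sources used here. Ages and replicate numbers came from the sample labels.

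Counts were analysed in R (4.3.3) with edgeR (4.0.16), which uses limma (3.58.1), and with DESeq2 (1.42.0) as an alternative. Genes were kept by filterByExpr (22485 genes), scaled by TMM and tested by edgeR's quasi-likelihood test with age as the only term and Benjamini-Hochberg adjustment over all genes tested. The study's methods name DESeq2. The standard error is the log2 fold change divided by the square root of F. Log2 CPM used a prior count of 2. Whether samples overlap was read from these values. Across 22485 genes, deviations of same-numbered samples from their age mean correlated at -0.48, so the numbers were not taken as pairs. Coordinates and exon lengths are those of GENCODE M21. The code was tested on simulated counts.

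The members and lists were chosen with earlier results of these data known. Named are the 10 members, the 2 genes of each list with the largest absolute log2 fold change, and the 5 genes nearest to Myh11, Rgs5 and Des by root mean square distance of centred log2 CPM among genes with a mean of at least 10 CPM. Further genes of the lists were named after their values were seen. One gene that this rule names is not reported here. P-values measure the spread between these samples, which may be technical.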

Additional observations from a re-analysis of the deposited data

How the results depend on the processing

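Under the alternatives (DESeq2, edgeR without the legacy method, RLE, upper quartile and total count scaling, scaling without skeletal muscle, keratin and mitochondrial genes, no filter, at least 10 counts in every sample, the replicate number as a block, and each sample left out), edgeR called 0 members and 0 genes in all, and DESeq2 called 1 member, Des, and 865 genes. Des and Rgs5 kept their direction in all 14 alternatives each. With total counts only, the log2 fold change turned to -0.079 for Cspg4, -0.11 for Notch3 and -0.075 for Pdgfrb, where the median of all genes was -0.22, and the median of the pericyte list was 0.33. With the replicate block the member median was 0.39 and that of the fibroblast list -0.65 against -1.12. Crossing the numbers, chosen after seeing the data because the correlation was below -0.1, gave 0 calls and -0.66 for the fibroblast list. Requiring at least 10 counts in every sample left a median of 0.012 for the regulators. With a sample left out, the arm with 1 sample is assumed to vary like the other. The log2 fold changes then ranged from -0.30 to 1.19 for Acta2, -0.059 to 1.09 for Myh11, -0.70 to 0.41 for Tagln, -0.37 to 1.24 for Cnn1, -0.21 to 0.34 for Pdgfrb, -0.50 to 0.54 for Cspg4, -0.34 to 0.67 for Notch3 and -0.32 to 1.04 for Mcam. List medians ranged from 0.18 to 0.98 for the other contractile genes, -0.00067 to 0.36 for the regulators, 0.47 to 0.65 for the pericyte list, 0.31 to 1.01 for the PDGF ligands, 0.061 to 0.45 for the Notch list, 1.47 to 2.37 for skeletal muscle, 0.55 to 2.06 for myoepithelium, -0.52 to 0.88 for luminal epithelium, 0.040 to 0.49 for endothelium, -1.23 to 0.61 for fibroblasts, 0.21 to 1.03 for adipocytes and -4.33 to 2.03 for immune cells, and the member median from -0.080 to 0.60.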

Other observations

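The genes whose profile over the 4 libraries lay nearest to that of Des, among 10612 genes with a mean of at least 10 CPM, were Lmod3, 3425401B19Rik, Tcap, Jsrp1 and Hrc, of which Lmod3, Tcap, Jsrp1 and Hrc encode proteins of the sarcomere or the calcium stores of striated muscle. Tcap, telethonin, was at 155 and 224 CPM in aged and at 35.8 and 43.7 CPM in young MFP. Lmod3, a leiomodin of skeletal muscle thin filaments, was at 19.1 and 29.3 CPM in aged and at 5.06 and 5.30 CPM in young MFP. The profile of Des was within 0.2 log2 units, by root mean square distance, of 44 of these genes, and that of Rgs5 of 768. The genes nearest to Rgs5 were Serpinf1, H6pd, Acad12, Cd36 and Raver2, of which Cd36 is the fatty acid transporter of adipocytes and endothelium and H6pd makes NADPH in the endoplasmic reticulum. Cd36 was at 1695 and 1334.5 CPM in aged and at 1094 and 990 CPM in young MFP (log2 fold change 0.54, adjusted p = 0.512 from edgeR). The paper states the opposite direction for CD36, lower in aged than in young MFP. It cites images of the protein and its RNA sequencing of the tissue.

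The genes nearest to Myh11 were Sdk2, Mal2, Retnla, Steap2 and Aldoc, none of them a gene of the smooth muscle contractile apparatus. Mal2, a protein of membrane transport in polarized epithelia, was at 18.2 and 21.6 CPM in aged and at 9.14 and 19.3 CPM in young MFP. With 4 libraries, many genes share a profile, and 209 of the genes compared lay within 0.2 log2 units of Myh11. Likeness of this kind says nothing of shared control.

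Among the markers of other cells, Vwf of endothelium was at 203 and 163 CPM in aged and 50.8 and 136 CPM in young MFP, or 0.97 on the log2 scale (edgeR adjusted p = 0.537), and Tek was at 0.39 (adjusted p = 0.625). The median over the 9 endothelial markers was 0.31. Of the fibroblast markers Dpp4 was at -1.79 (adjusted p = 0.488). Krt8 and Epcam of luminal epithelium were at -0.17 and 0.16. Cd3e of T cells was at 124 CPM in young replicate 1 and between 0.732 and 10.01 CPM in the other libraries, and Ptprc at 803 CPM against at most 100.4 CPM.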
